A study of Mus musculus with 12 samples.

Results

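Secreted frizzled-related proteins and frizzled receptors were followed across mouse fat depots and cell fractions through 6 genes: the secreted proteins Sfrp1 and Sfrp2 and the receptors Fzd1, Fzd2, Fzd4 and Fzd7. They were taken as every probe set whose only gene symbol in the array annotation was one of these, which gave 6 of 8251 genes with 1 current name and 8 of 12422 probe sets, 3 of them for Fzd4. All 12 samples came from male C57BL/6 mice, an inbred strain, with no engineered allele given, aged 42 to 49 days. Flank subcutaneous fat and epididymal (intraabdominal) fat of 10 animals were each pooled and digested with collagenase. The 4 groups of 3 arrays were subcutaneous adipocytes, intraabdominal adipocytes, subcutaneous stromo-vascular cells and intraabdominal stromo-vascular cells. Adipocytes floated off the digest and were extracted after washing. The stromo-vascular pellet, described as preadipocytes among other cells, was freed of red cells, plated in medium with serum and washed 16 h later, before its RNA was taken. Fraction and culture therefore cannot be told apart. Replicate arrays were not stated to come from separate pools, so the p-values reflect only how these arrays scatter, which may be technical.

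Wnt proteins are secreted lipid-modified signals that bind frizzled receptors, membrane proteins with an extracellular cysteine-rich domain. Secreted frizzled-related proteins carry a domain of the same kind but no membrane anchor, and bind Wnts outside the cell. In fat, canonical Wnt signalling through beta-catenin is known for holding precursors back from becoming adipocytes.

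The labels were checked against marker genes. All 7 adipocyte markers tested (Adipoq, Cidec, Fabp4, Lep, Lipe, Pnpla2 and Retn) were higher in adipocytes in both depots, and of 10 preadipocyte and fibroblast markers 7 were lower in adipocytes in subcutaneous fat and 8 in intraabdominal fat, while Cd34 and Dpt were higher in both. The ratio of 3′ to 5′ signal of the actin control, which rises as RNA breaks down, was 2.35 to 3.10 in subcutaneous adipocytes, 1.71 to 2.24 in intraabdominal adipocytes, 1.20 to 1.24 in subcutaneous and 1.11 to 1.21 in intraabdominal stromo-vascular cells. This ratio separated the fractions, and the adipocytes of the depots, without overlap. All 8 probe sets passed the filter on dim signals. That filter used the mean over all groups, so Sfrp1 and Fzd2 passed through their high stromo-vascular signals, and their adipocyte signals were dim. The Fzd4 probe set 95772_r_at passed through its adipocyte signals. Its stromo-vascular means, 118 in subcutaneous and 65.1 in intraabdominal fat, lay below the filter level of 173.

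**Figure D1:**
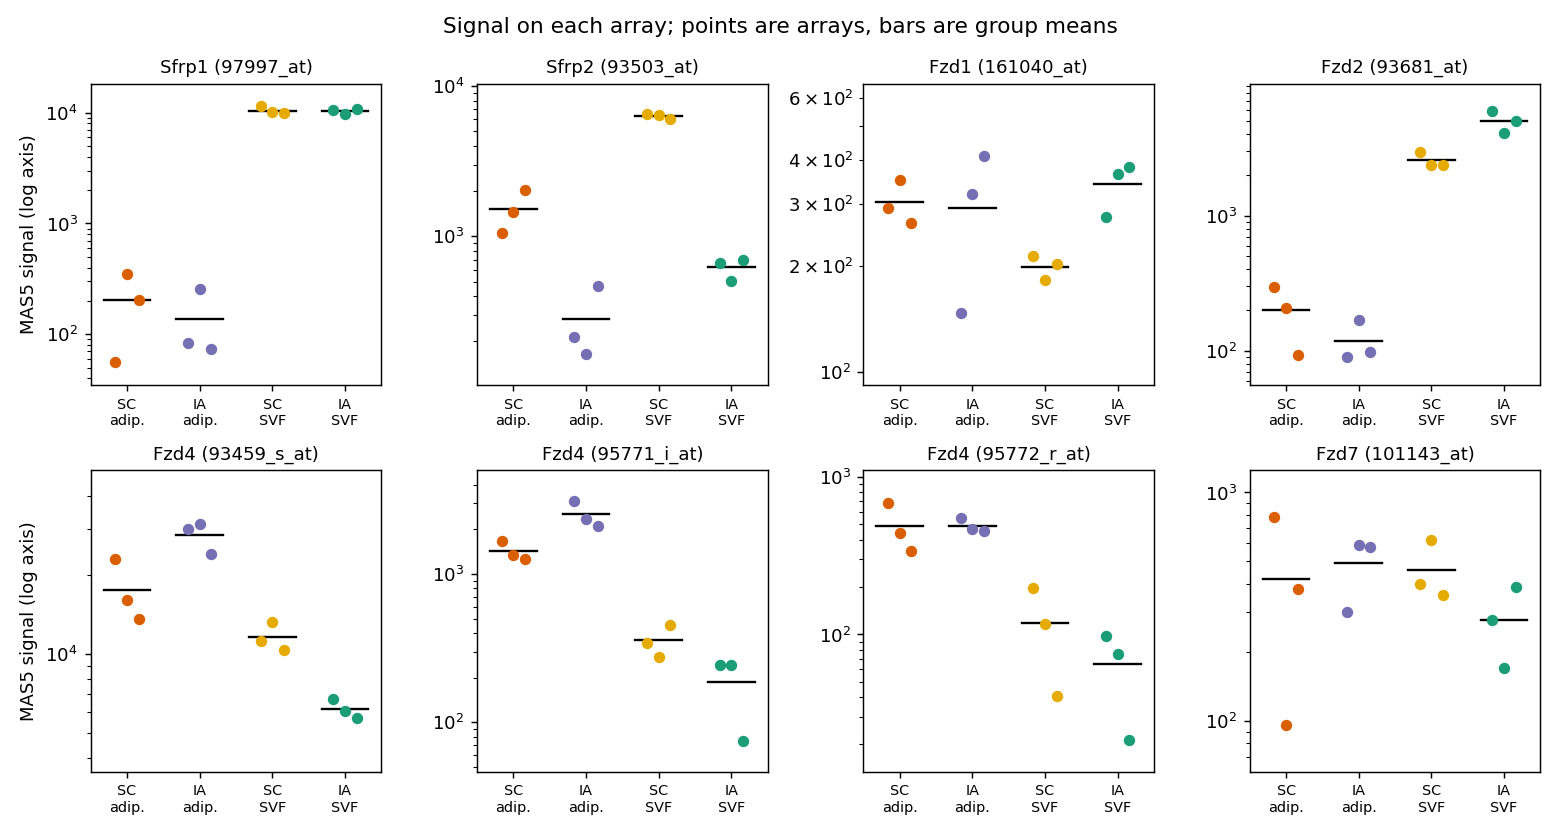
MAS5 signal (log axis) of the 8 probe sets on each of the 12 arrays, with bars at the group means (SC, subcutaneous; IA, intraabdominal; adip., adipocytes; SVF, stromo-vascular cells). Sfrp1 and Fzd2 were high only in stromo-vascular cells, Sfrp2 was higher in the subcutaneous group of each fraction, and Fzd4 was higher in adipocytes.

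Both secreted antagonists were lower in adipocytes than in cultured stromo-vascular cells, but they differed in how they varied by depot. Sfrp1 had the larger fraction difference and showed no detectable depot difference, whereas Sfrp2 differed by depot in both fractions. Sfrp1 (probe set 97997_at) read 55.7, 351 and 203 in subcutaneous adipocytes, against 11425, 10094 and 9850 in subcutaneous stromo-vascular cells. In intraabdominal fat it read 83.7, 258 and 73.7 in adipocytes, against 10540, 9662 and 10738 in stromo-vascular cells. No adipocyte array came near any stromo-vascular array. The log2 difference, adipocytes minus stromo-vascular cells, was -5.65 ± 0.42 (SE) in subcutaneous fat (50.2-fold lower, adjusted p = 3.74e-08) and -6.00 ± 0.42 in intraabdominal fat (64.1-fold lower, adjusted p = 1.89e-08). Mean adipocyte signal was 1.94% of the stromo-vascular mean in subcutaneous and 1.34% in intraabdominal fat. The adipocyte signals of Sfrp1 were dim, and their intraabdominal mean of 139 lay below the filter level of 173. The sizes of its folds therefore depend on the pseudocount. Between the depots the stromo-vascular arrays overlapped, with a log2 difference of 0.018 and a 95% interval of -0.88 to 0.92 (adjusted p = 0.99). Adipocyte arrays overlapped too (0.37, interval -0.53 to 1.27, adjusted p = 0.619), but at such dim signals a depot difference could be missed.

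Sfrp2 (probe set 93503_at) read 1047, 1443 and 2042 in subcutaneous adipocytes, against 214, 164 and 466 in intraabdominal adipocytes. In stromo-vascular cells it read 6494, 6377 and 6082 in the subcutaneous group, against 668, 501 and 695 in the intraabdominal group. Every subcutaneous array lay above every intraabdominal array of the same fraction. The log2 difference, subcutaneous minus intraabdominal, was 2.33 ± 0.302 in adipocytes (5.04-fold, adjusted p = 0.00036) and 3.28 ± 0.302 in stromo-vascular cells (9.70-fold, adjusted p = 3.62e-06). The 4 groups ran, from high to low, subcutaneous stromo-vascular cells, subcutaneous adipocytes, intraabdominal stromo-vascular cells and intraabdominal adipocytes, and no neighbours in this order overlapped. The difference between adipocytes and stromo-vascular cells was -2.09 ± 0.302 in subcutaneous fat (4.24-fold lower, adjusted p = 3.76e-05) and -1.14 ± 0.302 in intraabdominal fat (2.21-fold lower, adjusted p = 0.00539). Both of these fraction calls were lost with the actin ratio as a covariate (adjusted p = 0.429 and 0.519). The interaction, which subtracts the stromo-vascular depot difference from that of adipocytes, was -0.94 ± 0.427 and was not called (adjusted p = 0.224), so a difference in size between the depot effects was not established.

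The adipocyte signal of Sfrp2 was a larger share of the stromo-vascular signal than that of Sfrp1. Mean Sfrp2 in subcutaneous adipocytes was 23.9% of the subcutaneous stromo-vascular mean, with single arrays at 16.6% to 32.3%, while for Sfrp1 on the same arrays the range was 0.532% to 3.36%. In intraabdominal fat the shares were 45.3% for Sfrp2, with single arrays at 26.3% to 75.0% and array 3 the highest, and 1.34% for Sfrp1 (0.715% to 2.51%). The summed signal of 10 preadipocyte and fibroblast markers on adipocyte arrays was 20.9% of the stromo-vascular sum in subcutaneous and 18.2% in intraabdominal fat. Those sums were 74685 to 103217 in subcutaneous adipocytes, against 55934 to 64982 in intraabdominal adipocytes, and 3 of the 10 genes, the collagens Col1a1, Col1a2 and Col3a1, were called higher in subcutaneous adipocytes. In stromo-vascular cells the sums were 424262 to 462729 in the subcutaneous group, against 308920 to 357432 in the intraabdominal group, with 4 genes called higher and 1 lower. These sums moved with Sfrp2 in both depot comparisons, and their part in its difference was not tested. In such mixtures fewer cells of a type and less RNA per cell cannot be told apart.

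Among the receptors Fzd2 followed the fractions as Sfrp1 did. It is a frizzled that is known to take part in Wnt5a signalling. Fzd2 (probe set 93681_at) read 298, 206 and 94.2 in subcutaneous adipocytes, against 2971, 2376 and 2363 in subcutaneous stromo-vascular cells. It read 89.7, 168 and 97.8 in intraabdominal adipocytes, against 5893, 4067 and 5032 in intraabdominal stromo-vascular cells. The fractions did not overlap in either depot. Adipocytes were 11.6-fold lower in subcutaneous fat (log2 difference -3.54 ± 0.306, adjusted p = 1.89e-07) and 32.1-fold lower in intraabdominal fat (-5.01 ± 0.306, adjusted p = 4.18e-09). The adipocyte signals were dim, and their intraabdominal mean of 119 lay below the filter level of 173. The sizes of these folds therefore depend on the pseudocount. Every subcutaneous stromo-vascular array lay below every intraabdominal one, with a log2 difference of -0.94 ± 0.306 that fell short of a call (95% interval -1.60 to -0.28, adjusted p = 0.0588). Its interaction was 1.47 ± 0.433 (adjusted p = 0.0508). The stromo-vascular depot difference was called under 9 of 22 alternatives, among them both other scalings (adjusted p = 0.036 and 0.0394), the 6 stromo-vascular arrays alone (0.00236), and the fits without subcutaneous adipocyte array 1 (0.028) or 3 (0.0152). Over those 22 the log2 difference ran from -1.08 to -0.81 and its adjusted p from 0.00236 to 0.189. Without subcutaneous adipocyte array 3 the adipocyte difference, 0.53 with all arrays, was 0.90 and was called (adjusted p = 0.0469), and the interaction was 1.84 (adjusted p = 0.00483). The interaction was called under 5 of 21 alternatives, among them the fit without intraabdominal adipocyte array 2 (1.68, adjusted p = 0.0351). Over those 21 the interaction ran from 0.59 to 1.84 and its adjusted p from 0.00483 to 0.545. The adipocyte depot difference and the interaction both use the dim adipocyte values, so their sizes depend on the pseudocount too.

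Smooth muscle, mesothelial and most macrophage markers moved in the direction of Fzd2 between the stromo-vascular groups. Of 9 markers of smooth muscle and pericytes 7 were lower in the subcutaneous group, and the summed signal was 36447 to 38110 there, against 129109 to 154647 in the intraabdominal group. All 5 mesothelial markers tested, of 7 on the array, were lower, with sums over the 7 of 1087 to 1413 in the subcutaneous group, against 6879 to 7064 in the intraabdominal group. Of 9 macrophage markers tested 6 were lower and 1 (Csf1r) higher, and the sums over 10 were 16801 to 16964 in the subcutaneous group, against 25572 to 28803 in the intraabdominal group. Other lists went the other way. Preadipocyte and fibroblast markers had 4 called higher and 1 lower in the subcutaneous group, and endothelial markers 5 higher and 0 lower. Skeletal muscle sums were also higher there, at 4407 to 4556, against 2468 to 3013 in the intraabdominal group. The part of any of these lists in the Fzd2 values was not tested.

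Fzd4 was the frizzled with the opposite pattern between the fractions. It serves Wnts and the unrelated ligand Norrin, and is known for its role in blood vessels of the retina. Its 3 probe sets carry suffixes by which the array's maker marks sets designed outside its usual rules: s (93459_s_at) for probes shared with similar transcripts, i (95771_i_at) for an incomplete set and r (95772_r_at) for relaxed rules. With shared probes, the signal of the s set may not come from Fzd4 alone. The s set read 22906, 16029 and 13588 in subcutaneous adipocytes, against 11162, 13157 and 10328 in subcutaneous stromo-vascular cells. In intraabdominal fat it read 29802, 31241 and 23951 in adipocytes, against 6747, 6075 and 5680 in stromo-vascular cells. Adipocytes lay above stromo-vascular cells without overlap in both depots, by a wider margin in intraabdominal fat. The log2 difference was 0.57 ± 0.174 in subcutaneous fat (1.49-fold, adjusted p = 0.0129) and 2.19 ± 0.174 in intraabdominal fat (4.55-fold, adjusted p = 7.81e-08). The i set was 3.72-fold higher in subcutaneous (adjusted p = 0.000183) and 12.05-fold higher in intraabdominal adipocytes (adjusted p = 3.05e-07). The r set was 3.55-fold and 5.31-fold higher (adjusted p = 0.00325 and 0.000381). Stromo-vascular signals of the r set were dim in both depots, so the sizes of its folds depend on the pseudocount. With the actin ratio as a covariate the subcutaneous difference of the s set was -0.039 (adjusted p = 0.98), and it also lost its call without subcutaneous adipocyte array 1 (0.36, adjusted p = 0.0652) or subcutaneous stromo-vascular array 3 (0.49, adjusted p = 0.0548). The covariate also ended the subcutaneous calls of the i set (2.47 ± 1.14, adjusted p = 0.192) and the r set (1.51 ± 1.57, 0.602) and the intraabdominal call of the r set (2.203 ± 1.08, 0.163), where the differences without it were 1.90, 1.83 and 2.41 and the SE 0.326 to 0.45.

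Between the depots the Fzd4 s set went one way in adipocytes and the other way in stromo-vascular cells. The i and r sets gave no depot call. The s set averaged 17508 ± 4832 in subcutaneous adipocytes and 28331 ± 3861 in intraabdominal adipocytes (SD, n = 3 each), a log2 difference of -0.72 ± 0.174 (1.65-fold lower, adjusted p = 0.0213). In stromo-vascular cells it averaged 11549 ± 1454 in the subcutaneous and 6167 ± 539 in the intraabdominal group, a log2 difference of 0.90 ± 0.174 (1.86-fold higher, adjusted p = 0.00279). Neither pair of groups overlapped. The difference between these depot effects was -1.62 ± 0.247 (95% interval -2.14 to -1.09, adjusted p = 0.000759). The i set gave -0.80 in adipocytes (adjusted p = 0.146) and 0.90 in stromo-vascular cells (adjusted p = 0.0933), neither called though the groups did not overlap, and an interaction of -1.69 ± 0.461 (adjusted p = 0.0347). The r set, the dimmest of the 3, gave -0.046 and 0.53 with an interaction of -0.58 ± 0.636 (adjusted p = 0.664), and its arrays overlapped in both comparisons. In the s and i sets the levels ran from intraabdominal adipocytes through subcutaneous adipocytes and subcutaneous stromo-vascular cells to intraabdominal stromo-vascular cells, with no overlap between neighbours.

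The adipocyte depot call of the s set rested on few arrays. It was lost without subcutaneous adipocyte array 2 (log2 difference -0.67, adjusted p = 0.0601) or 3 (-0.55, 0.057), without intraabdominal adipocyte array 1 (-0.68, 0.0836) or 2 (-0.64, 0.0934), in the 6 adipocyte arrays alone (0.0859) and with the actin ratio as a covariate (-0.96, 0.136). Its stromo-vascular call and its interaction held under all alternatives run, with adjusted p of 4.68e-05 to 0.0199 and 9.7e-05 to 0.00449. The interaction call of the i set was lost without any one of 6 arrays (subcutaneous adipocyte 2 or 3, intraabdominal adipocyte 1 or 2, subcutaneous stromo-vascular 1 or 3; adjusted p = 0.0632 to 0.0958) and with the covariate (0.22), while its value stayed at -1.74 to -1.52 without those arrays and -1.50 with the covariate.

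Endothelial markers were higher in adipocytes for 8 of 9 genes in each depot. Their summed signal was 18825 to 34784 in subcutaneous adipocytes, against 10306 to 11750 in subcutaneous stromo-vascular cells, and 22743 to 24879 in intraabdominal adipocytes, against 9928 to 17207 in intraabdominal stromo-vascular cells. Between depots these sums overlapped in both fractions. In stromo-vascular cells 5 of 9 genes (Cdh5, Emcn, Ramp2, Tek and Tie1) were higher in the subcutaneous group, as the Fzd4 s set was. In adipocytes 1 (Ramp2) was lower, also as that set was. The summed signal of 5 skeletal muscle markers moved between depots as the Fzd4 s set did, without overlap. It was 3001 to 3421 in subcutaneous against 4057 to 4689 in intraabdominal adipocytes. In stromo-vascular cells it was 4407 to 4556 in the subcutaneous group, against 2468 to 3013 in the intraabdominal group. Between the fractions these sums were lower in adipocytes in subcutaneous fat, opposite to Fzd4, and higher in adipocytes in intraabdominal fat, as Fzd4 was. Of 4 muscle markers tested, Acta1 was called in both depot comparisons and in the direction of the Fzd4 s set. Myh4 was lower in the subcutaneous stromo-vascular group. The part of either list in the Fzd4 values was not tested.

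Fzd1 and Fzd7, which with Fzd2 form the group of most closely related frizzleds, gave dim signals and no calls. Fzd1 (probe set 161040_at) read 266 to 352 in subcutaneous adipocytes, 147 to 412 in intraabdominal adipocytes, 182 to 213 in subcutaneous stromo-vascular cells and 276 to 383 in intraabdominal stromo-vascular cells. The subcutaneous stromo-vascular arrays lay below all of the subcutaneous adipocyte and the intraabdominal stromo-vascular arrays. Neither difference was called: the adipocyte minus stromo-vascular difference in subcutaneous fat was 0.51 (95% interval -0.22 to 1.25, adjusted p = 0.227) and the depot difference in stromo-vascular cells -0.66 (-1.40 to 0.074, adjusted p = 0.259). Fzd7 (probe set 101143_at) read 96.3 to 780 in subcutaneous adipocytes, 300 to 592 in intraabdominal adipocytes, 357 to 621 in subcutaneous stromo-vascular cells and 172 to 387 in intraabdominal stromo-vascular cells. All neighbouring groups of Fzd7 overlapped, and its 95% intervals were wide, from -1.63 to 0.62 for the depot difference in adipocytes and from -0.46 to 1.79 in stromo-vascular cells.

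In counts, 6 of the 8 probe sets, from 4 of the 6 genes, were called between the fractions in subcutaneous fat, 3 higher and 3 lower in adipocytes. The share of all 8695 probe sets called there was 52.8%, with 23.5% higher and 29.4% lower. In intraabdominal fat 6 were again called, 3 higher and 3 lower, against 51.3% of all (22.4% higher and 29% lower). With so much of the array called, such counts say little about these genes. Between depots 2 of 8 were called in adipocytes, Sfrp2 higher and the Fzd4 s set lower in subcutaneous fat, against 8.13% of all (3.97% higher and 4.16% lower). In stromo-vascular cells 2 of 8 were called, both higher (Sfrp2 and the Fzd4 s set), against 12.9% of all (6.49% higher and 6.45% lower). The interaction was called in 2 of 8, both Fzd4 and both negative, against 8.43% of all (3.9% positive and 4.53% negative). The contrasts share arrays, so these counts are not independent. Over the 8 probe sets the median log2 difference was 0.041 between the adipocyte groups and 0.60 between the stromo-vascular groups. Over all probe sets these medians were 0.071 and 0.061. Fzd4 gave 3 of the 8 stromo-vascular values (0.90, 0.90 and 0.53), so the 0.60 does not describe the genes as a set. Fzd2 (-0.94) and Fzd1 (-0.66) lay below 0 there, neither called.

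**Figure D2:**
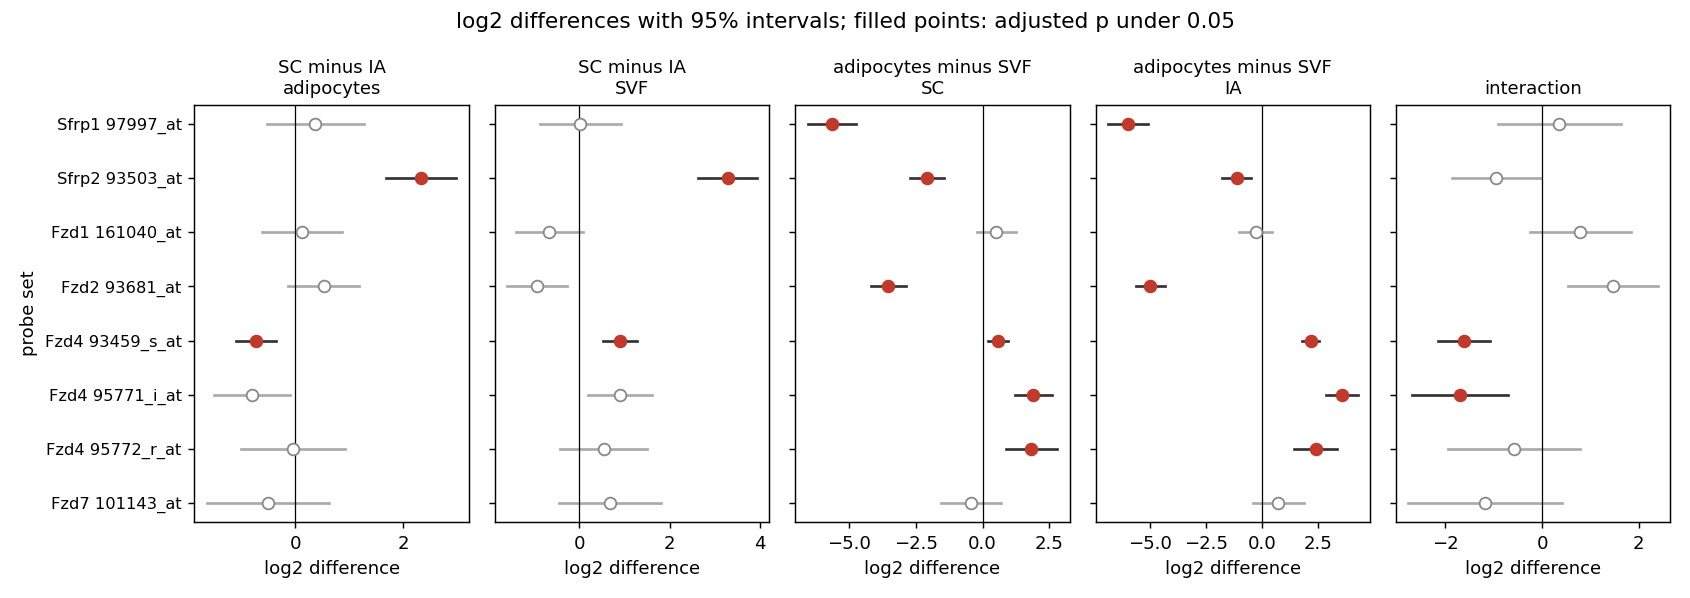
log2 differences (points) with 95% intervals (lines) of the 8 probe sets in the 5 contrasts, filled where the adjusted p was under 0.05. Sfrp2 was positive in both depot contrasts, the Fzd4 s set was negative in adipocytes (-0.72) and positive in stromo-vascular cells (0.90), and Sfrp1 and Fzd2 were far below 0 in both fraction contrasts.

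Sfrp2 and, by its s set alone, Fzd4 were the genes called higher in subcutaneous stromo-vascular cells. Their promoters are shown for comparison. RefSeq sequence (build GRCm38.p6) was held for 4 of the 6 genes: Sfrp2, Fzd1, Fzd4 and Fzd7. Each window holds 250 bases before and 50 after the start site. Capitals mark matches, on either strand, to the TATA box (TATAAA), the CCAAT box (CCAAT), the GC box (GGGCGG) or the core bound by the Wnt effectors TCF and LEF (CTTTGA). Of 32851 promoter windows of this length 13.6% held the first, 37.4% the second, 35.7% the third and 5257 windows the last. The Sfrp2 window is chr3:83766071-83766370 and the Fzd4 window chr7:89404116-89404415, both on the plus strand.
Sfrp2: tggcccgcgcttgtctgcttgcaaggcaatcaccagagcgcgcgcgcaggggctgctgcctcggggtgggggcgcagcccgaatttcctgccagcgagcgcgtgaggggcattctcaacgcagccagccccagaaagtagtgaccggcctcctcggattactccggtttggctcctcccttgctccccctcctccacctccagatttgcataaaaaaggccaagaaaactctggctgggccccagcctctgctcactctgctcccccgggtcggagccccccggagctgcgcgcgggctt
Fzd4: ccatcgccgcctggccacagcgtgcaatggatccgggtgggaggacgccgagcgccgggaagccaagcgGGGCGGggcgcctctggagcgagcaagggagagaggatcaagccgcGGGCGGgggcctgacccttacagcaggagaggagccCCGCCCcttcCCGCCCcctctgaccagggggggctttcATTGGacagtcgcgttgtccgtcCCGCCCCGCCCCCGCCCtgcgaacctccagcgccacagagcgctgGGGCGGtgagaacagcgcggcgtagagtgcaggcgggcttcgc

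The Sfrp2 window held none of the 4 motifs. The Fzd4 window held 8 GC boxes, 3 on the given strand and 5 on the other, 2 of them sharing a base, and 1 CCAAT box on the other strand. GC content was 66.0% for Sfrp2 and 72.7% for Fzd4, beside a median of 52.7% over all windows. The Fzd7 window held 7 GC boxes and 2 CCAAT boxes, and the Fzd1 window 1 TATA box and 1 TCF and LEF core. Such matches describe letters and not sites in use.

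The rest of the Wnt pathway was followed through 108 listed genes, of which 70 were on the array and 46 passed the filter. Called genes numbered 24 of 46 between the fractions in subcutaneous fat (10 higher and 14 lower in adipocytes; 52.8% of all probe sets) and 22 in intraabdominal fat (9 higher, 13 lower; 51.3% of all). Between depots they numbered 4 in adipocytes, all lower in subcutaneous fat, and 9 in stromo-vascular cells, 3 higher and 6 lower. The shares, 8.70% and 19.6%, stand beside 8.13% and 12.9% of all probe sets.

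Of 18 genes for ligands and their release on the array only 4 passed the filter: Wnt1, Wnt3, Wnt10a and Wls. Wls, the carrier that brings Wnts to the cell surface, averaged 4919 ± 609 in the subcutaneous stromo-vascular group and 11006 ± 996 in the intraabdominal one (2.23-fold lower, adjusted p = 0.000192). It was also 1.53-fold lower in subcutaneous adipocytes and 2.48-fold lower in intraabdominal adipocytes than in the stromo-vascular cells of the same fat (adjusted p = 0.00573 and 8.37e-06). Wnt10a, a ligand known to restrain fat cell formation, was 1.53-fold higher in subcutaneous adipocytes than in subcutaneous stromo-vascular cells (adjusted p = 0.0494).

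Of 11 other receptors and co-receptors tested 4 were called between the fractions in subcutaneous and 6 in intraabdominal fat. The 11 included Smo, which is not a Wnt receptor and was called in no contrast. The shares of all probe sets called there were 52.8% and 51.3%. Tspan12, a membrane partner of Fzd4 in Norrin signalling, was higher in adipocytes as Fzd4 was: 1631 ± 424 in subcutaneous adipocytes and 649 ± 184 in subcutaneous stromo-vascular cells (2.42-fold, adjusted p = 0.000776), and 1858 ± 451 in intraabdominal adipocytes and 391.9 ± 76.7 in intraabdominal stromo-vascular cells (4.36-fold, adjusted p = 6.85e-06). Lrp5, a co-receptor of frizzleds, was 4.67-fold higher in adipocytes than in stromo-vascular cells of intraabdominal fat (adjusted p = 0.00624). Its stromo-vascular mean there, 169 ± 93.0, lay below the filter level of 173, so the size of this fold depends on the pseudocount. Lower in adipocytes in both depots were Reck, a membrane protein needed for Wnt7 signals in brain vessels (11.3-fold and 38.0-fold lower), and the Wnt receptors Ror2 (4.81-fold and 4.27-fold) and Ryk (1.67-fold and 2.31-fold). Ptk7, a co-receptor linked to planar polarity, was 5.54-fold lower in intraabdominal adipocytes than in intraabdominal stromo-vascular cells (adjusted p = 0.000455). It was 3.41-fold lower in the subcutaneous than in the intraabdominal stromo-vascular group (adjusted p = 0.0216). The subcutaneous stromo-vascular arrays scattered widely, at 344 ± 298, against 1063 ± 191 in the intraabdominal group. The interaction of Ptk7 uses the same arrays. Fzd9 was 2.21-fold higher in subcutaneous stromo-vascular cells (adjusted p = 0.046).

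Of the other secreted antagonists only Sfrp4 and Dkk3 passed the filter. Dkk3, a member of the Dickkopf family, was lower in adipocytes, as Sfrp1 and Sfrp2 were: 109 ± 19.3 in subcutaneous adipocytes and 1518 ± 207 in subcutaneous stromo-vascular cells (10.4-fold lower, adjusted p = 1.14e-07), and 74.0 ± 19.7 in intraabdominal adipocytes and 912 ± 213 in intraabdominal stromo-vascular cells (8.29-fold lower, adjusted p = 3.3e-07). Sfrp4, called in no contrast, averaged 275 in the subcutaneous and 71.9 in the intraabdominal adipocyte group, and 302 and 222 in the matching stromo-vascular groups.

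Among 20 genes of intracellular signalling or planar polarity 7 were higher and 4 lower in subcutaneous adipocytes than in stromo-vascular cells. In intraabdominal adipocytes 5 were higher and 4 lower. Beside them, 23.5% of all probe sets were higher and 29.4% lower in subcutaneous fat, and 22.4% higher and 29% lower in intraabdominal fat. Ctnnb1, which encodes beta-catenin, averaged 4613 ± 163 in subcutaneous adipocytes and 12841 ± 317 in subcutaneous stromo-vascular cells (2.77-fold lower, adjusted p = 2.46e-08) and was 2.14-fold lower in intraabdominal adipocytes. Csnk1a1, the kinase that primes beta-catenin for breakdown, differed by -1.05 and -1.14 on the log2 scale. Frat2, which binds the kinase GSK3, was 4.58-fold and 6.43-fold higher, and the transcription factor Tcf7l1 and the co-repressors Tle1 and Tle3 were 1.41-fold to 1.85-fold higher. Celsr2, a cadherin of planar polarity, was 3.84-fold and 2.50-fold higher (adjusted p = 8.05e-05 and 0.00203). In subcutaneous fat Ctnnbip1, an inhibitor of beta-catenin, and the transcription factor Tcf7l2 were called higher in adipocytes (0.54 and 0.68 on the log2 scale), and Dvl2, which relays the signal from frizzleds, lower (-0.94; adjusted p = 0.0392 to 0.0458). These 3 genes were not called in intraabdominal fat, and their interactions did not reach a call (adjusted p = 0.408 to 0.871). The kinase Csnk1d was 1.27-fold lower in intraabdominal adipocytes than in intraabdominal stromo-vascular cells and 1.39-fold lower in the subcutaneous than in the intraabdominal stromo-vascular group. The small GTPases Rac1 and Rhoa were lower in the subcutaneous group of both fractions, by 1.37-fold to 1.70-fold.

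Of 9 genes known as Wnt targets in other settings 6 were called between the fractions in subcutaneous fat and 5 in intraabdominal fat. These stand beside 52.8% and 51.3% of all probe sets, and the called genes moved in both directions. Ccn4 and Ccn5, matricellular proteins, were 14.7-fold and 22.3-fold lower in subcutaneous adipocytes and 53.9-fold and 52.4-fold lower in intraabdominal adipocytes. Their adipocyte means were dim, at 113 ± 73.9 and 88.0 ± 71.7 for Ccn4 and 205 ± 212 and 147 ± 102 for Ccn5, beside a filter level of 173, so both passed the filter through their stromo-vascular signals and the sizes of these folds depend on the pseudocount. The same holds for Dkk3, Ror2 and Cd44 in both depots and for Reck in intraabdominal fat, whose adipocyte means all lay below that level. Lef1, itself a Wnt effector, was 2.06-fold and 2.80-fold higher. Axin2, the inhibitor that canonical signalling induces, was called in no contrast and averaged 326 in the subcutaneous and 386 in the intraabdominal adipocyte group, and 491 and 279 in the matching stromo-vascular groups. The interaction was called in 4 of the 46 Wnt genes (8.70%, against 8.43% of all probe sets), negative in Myc (-1.42, adjusted p = 0.00141), Fosl1 (-2.73, 8.4e-05) and Cd44 (-1.54, 0.0301) and positive in Ptk7 (2.28, 0.0492). Cd44, a hyaluronan receptor, averaged 26.8 in the subcutaneous adipocyte group, below the pseudocount, and 134 in the intraabdominal one, against 908 and 799 in the matching stromo-vascular groups, so its interaction rests on adipocyte values at the floor. Fosl1, an AP-1 transcription factor, averaged 373 ± 98.8 in the subcutaneous and 1186 ± 350 in the intraabdominal adipocyte group, and 3371 ± 268 and 1468 ± 109 in the matching stromo-vascular groups.

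**Figure D3:**
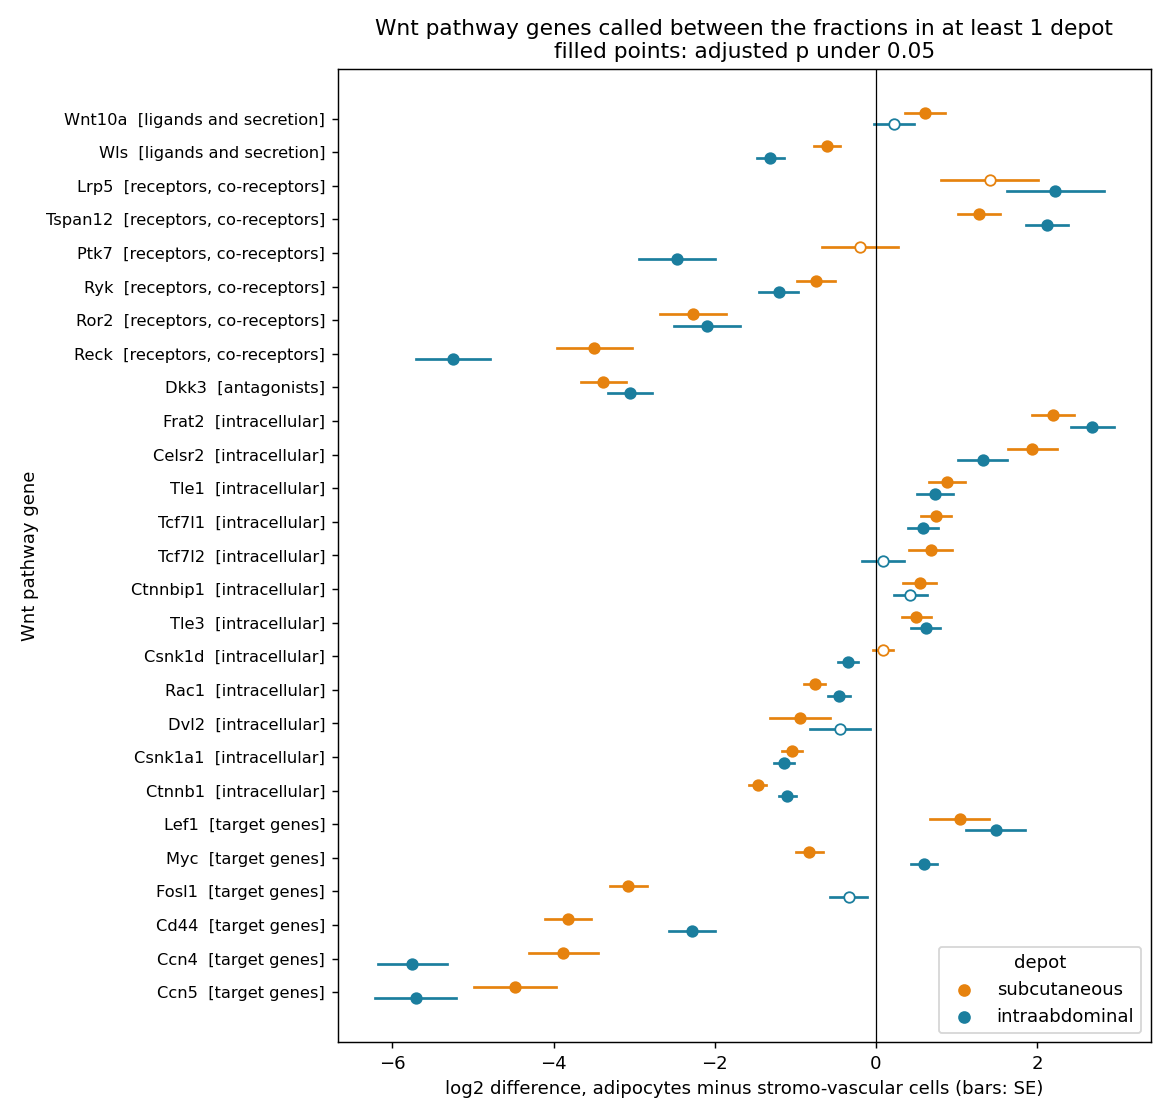
log2 difference, adipocytes minus stromo-vascular cells, of the Wnt pathway genes called between the fractions in at least 1 depot, with bars of 1 SE and filled points where called. Tspan12, Frat2 and Lef1 lay above 0 in both depots, and Reck, Dkk3, Ccn4 and Ccn5 far below it. The label intracellular also covers Celsr2, a cadherin of planar polarity.

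The genes whose profile over the 12 arrays was most like each of the 6 were found by the root mean square difference of log2 values centred on each gene's own mean, a measure that small profiles pass more easily. For Sfrp1, whose own spread about its mean was 2.96, they were Lox (0.437), a collagen crosslinking enzyme, Tnc (0.558), a matrix protein, and Pdpn (0.592). For Fzd2 (spread 2.196) they were Tpm1 (0.305) and Cnn2 (0.370), both actin-binding proteins, and F2r (0.383), a thrombin receptor. For Sfrp2 (spread 1.67) the distances were wider: Ace (0.658), the angiotensin-converting enzyme, Shox2 (0.715), a homeobox factor of limb development, and Anpep (0.789), a membrane peptidase. Shox2 averaged 2457 in the subcutaneous and 282 in the intraabdominal adipocyte group, and 3622 and 397 in the matching stromo-vascular groups. For the Fzd4 s set (spread 0.824) they were Lpgat1 (0.249), an acyltransferase, Col6a2 (0.268), a chain of type VI collagen, and Rab3d (0.280), a vesicle GTPase. Lpgat1 averaged 8887 in the subcutaneous and 17965 in the intraabdominal adipocyte group, and 5093 and 3255 in the matching stromo-vascular groups, the same order of groups as Fzd4. For Fzd1 they were Zfhx3, Tamm41 and Adgrl1 (0.214 to 0.229 at a spread of 0.386), and for Fzd7 Nedd4, Ptprm and Adk (0.401 to 0.430 at a spread of 0.700), distances that were large beside the gene's own spread.

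**Figure D4:**
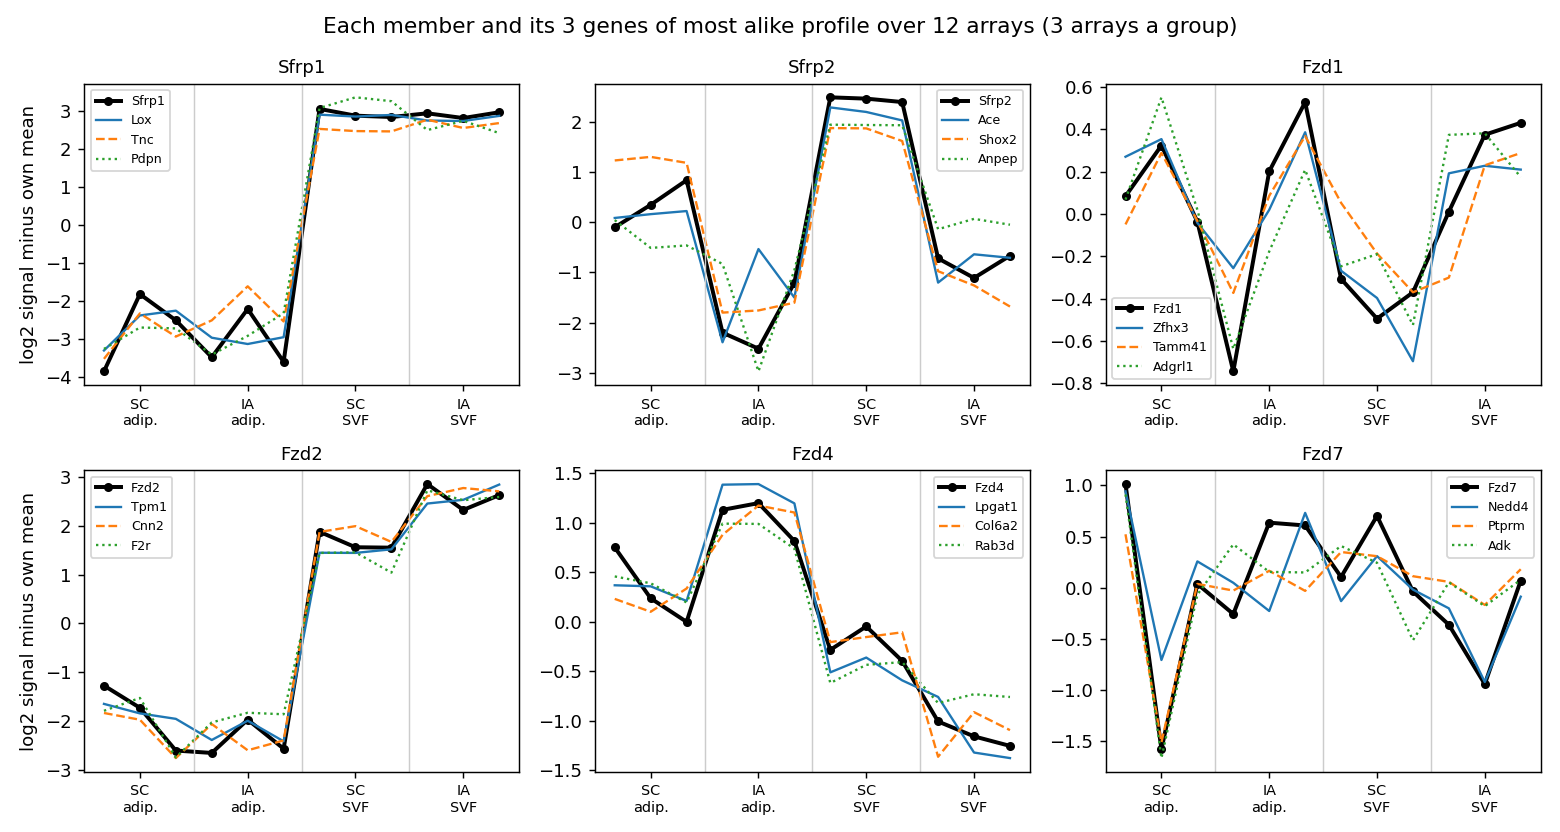
log2 signal of each gene minus its own mean on the 12 arrays, in 4 groups of 3 separated by grey lines, for the 6 genes (black) and the 3 genes of smallest root mean square difference from each. Sfrp1 with Lox, and Fzd2 with Tpm1, stepped up from adipocytes to stromo-vascular cells, while Fzd7 and its nearest genes differed mainly on single arrays.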

How the data were processed

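Messenger RNA was measured on 12 Affymetrix arrays, 3 in each of 4 groups. The deposited values are a linear signal intensity per probe set, which the authors computed with MAS5, per the submitters' processing notes. Neither the software version nor detection calls are known here (not given in the sources used here). Trimmed means (2%) differed between arrays by a ratio of at most 1.0002, so the values were used as deposited. No 2 arrays were identical (0 pairs).

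The 66 control probe sets and the 30% of probe sets with the lowest mean log2 signal were left out, which left 8695 of 12422. A pseudocount of 40.1, which is percentile 10 of the table, was added before taking log2. The 4 group means were fitted with limma 3.58.1 in R 4.3.3 (lmFit, contrasts.fit, eBayes with trend; 8 residual degrees of freedom). P-values were adjusted by Benjamini-Hochberg over all 8695 probe sets per contrast, with calls at an adjusted p under 0.05. Folds include the pseudocount, which understates the change of dim probe sets. The procedure was tested on simulated data. The number of arrays limits the precision.

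Gene names come from GEO's platform annotation: 10833 probe sets had 1 symbol, 396 several and 1193 none here. Entrez numbers matched 10817 of the first to current records. The genes described and the lists were chosen with earlier results of these data known. Named genes are every probe set of the 6 genes and the Wnt pathway genes called in any contrast. Axin2, Sfrp4, Smo, Wnt1 and Wnt3, called in none, were named after their values were seen. Also named, for each of the 6, are the 3 genes of smallest root mean square difference over the 12 arrays. The log2 values compared were each centred on the gene's own mean. Alternatives changed the pseudocount, the filter, the scaling, the arrays and weights in the fit, and added a replicate block or the actin ratio as a covariate. Same-numbered arrays of different groups deviated together with correlations of -0.086 to 0.11 (over 0.1 in 1 of 18). The labels do not say whether equal numbers mark a shared pool or day. Such correlations, from few arrays, cannot settle it, so the numbers were not used as pairs.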

Additional observations from a re-analysis of the deposited data

Results flagged for a closer look

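In 2 of its 3 probe sets the depot difference of Fzd4, subcutaneous minus intraabdominal, differed between the 2 fractions by the interaction test of limma. The s set had an interaction of -1.62 (adjusted p = 0.000759) and the i set one of -1.69 (adjusted p = 0.0347), while the r set, with -0.58, was not called. In the s set the depot difference was negative in adipocytes and positive in stromo-vascular cells, and each was called. With groups of 3 arrays no single array was tested for standing apart from its group.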

How the results depend on the processing

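Over 40 single comparisons and 857 alternative values, 821 kept their side of the threshold, 20 lost a call, 15 gained one and 1 called value changed sign. The change of sign was the Fzd4 s set between the fractions in subcutaneous fat, at -0.039 with the actin ratio as a covariate; that ratio separates the fractions, so the covariate shares their difference. With this covariate the probe sets called numbered 1 of 8 between the adipocyte groups and 1 for the interaction, against 2 and 2 as reported. Between the fractions they numbered 2 in subcutaneous and 4 in intraabdominal fat, against 6 and 6. Between the stromo-vascular groups they numbered 3, against 2. In the arrays of the compared groups alone 1 was called between the adipocyte groups. Leaving out each array in turn gave 1 to 2 between the adipocyte groups, 2 to 3 between the stromo-vascular groups, 5 to 6 and 6 to 6 between the fractions in subcutaneous and intraabdominal fat, and 1 to 2 for the interaction. The Sfrp2 depot calls held throughout, with adjusted p of 2.31e-05 to 0.0299 in adipocytes and 3.52e-08 to 4.55e-05 in stromo-vascular cells.

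With the replicate number as a block the counts were 2, 2, 6, 6 and 2, as without it. Whether the numbers pair the samples is not known. With the block the calls over all probe sets between the adipocyte groups numbered 595, against 707. That count of 707 was 97 with the actin covariate, 299 in the adipocyte arrays alone, and 375 and 367 without intraabdominal adipocyte array 1 or 2. The covariate gave 1058, 2173 and 403 calls against 4594, 4462 and 733 for the fractions in subcutaneous and intraabdominal fat and the interaction, and array weights 1952 against 1125 for the stromo-vascular depots. Centring each array on its median shifted the median of all probe sets between the adipocyte groups to -0.15, against 0.07, and the share of calls that were higher to 18.0%, against 48.8% (for the interaction 32.9% against 46.2%). It moved the median between the fractions in intraabdominal fat to 0.049, against -0.11, and that of the interaction to -0.13, against 0.029. Over the 22 alternatives the depot difference in adipocytes was 2.06 to 2.72 for Sfrp2 and -0.96 to -0.55 for the Fzd4 s set. MAS5 detection calls were not used here, so dim values such as Sfrp1 in adipocytes have no lower bound of their own.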
